A study of Mus musculus with 15 samples.

Results

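Chromatin accessibility was described at 9 mouse genes of the NF-kB pathway. They were the NF-kB subunit genes Nfkb1, Nfkb2, Rel and Relb, the NF-kB inhibitor genes Nfkbia and Tnfaip3, and Birc3, which encodes an inhibitor of cell death. The TNF receptor genes Tnfrsf11a and Tnfrsf12a made up the rest. The genes were listed by name, and their regions were those of the deposited matrix whose midpoint lay inside the RefSeq gene body or for which the gene was the nearest protein-coding gene within 50 kb. Of the 9 genes, 8 had regions, out of 16711 genes with regions in all. They held 74 of the 93217 regions in the matrix, with 23 at Nfkb1, 2 at Nfkb2, 2 at Rel, 5 at Relb, 6 at Nfkbia, 12 at Tnfaip3, 14 at Birc3 and 10 at Tnfrsf11a. Tnfrsf12a had none by this rule. The midpoints of 40 of the 74 regions lay inside the gene body, and those of 34 lay outside it.

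The libraries were ATAC-seq libraries, which mark DNA open to a transposase, made from cells sorted from mouse liver with no growth in culture. There were 5 groups of 3 libraries: reprogrammed hepatocytes, biliary cells and hepatocytes from mice given DDC, and biliary cells and hepatocytes from untreated mice. DDC (diethoxycarbonyl-dihydrocollidine) is a compound that injures the liver around its bile ducts, and reprogrammed hepatocytes is the labels' own name for hepatocytes that have changed towards biliary cells. The sources used here do not give the strain, age, sex, sort markers, any lineage label, or the dose and duration of DDC.

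NF-kB is a family of transcription factors that work as pairs of subunits. In resting cells an inhibitor, such as the IkB-alpha protein encoded by Nfkbia, holds the pair in the cytoplasm until a signal from a receptor of the TNF superfamily leads to its destruction. Nfkbia, Tnfaip3, Birc3, Nfkb2 and Relb are known targets of NF-kB as well as parts of the pathway, so that the pathway feeds back on itself. In the injured liver NF-kB is known to act both in inflammation and in the survival of hepatocytes.

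The RefSeq promoter table (GRCm38.p6) held 10 windows of 250 bases before to 50 after a start site for 7 of the 9 genes; Nfkb1 and Relb were not matched. The windows were searched on both strands for the NF-kB decamer motif, named here without its letters, with overlapping matches counted separately. It was present in 6 of the 10 windows, at 4 of the 7 genes, against 8.46% of all 32851 windows in the table. All 3 Nfkb2 windows held it, as did those of Rel and Nfkbia and 1 of the 2 of Tnfaip3, while those of Birc3, Tnfrsf11a and Tnfrsf12a held no match. Windows 2 and 3 of Nfkb2 overlap and share 1 match, which is counted in both. Shown are 1 window with a match for each of the 4 genes with a match, and the Birc3 window, which has none. Their start sites lie in regions measured here. The Tnfrsf11a window and the other Nfkb2 and Tnfaip3 windows also lie in measured regions but are not shown. Capitals mark the matches, which merge into 1 run where they overlap.
Nfkb2 promoter, chr19:46304487-46304786, plus strand: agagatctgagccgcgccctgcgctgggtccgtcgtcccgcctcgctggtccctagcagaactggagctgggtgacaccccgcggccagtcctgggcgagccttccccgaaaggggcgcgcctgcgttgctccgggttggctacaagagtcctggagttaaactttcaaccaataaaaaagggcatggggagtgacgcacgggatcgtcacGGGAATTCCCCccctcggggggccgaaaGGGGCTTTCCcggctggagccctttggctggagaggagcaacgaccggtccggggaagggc
Rel promoter, chr11:23770920-23771219, minus strand: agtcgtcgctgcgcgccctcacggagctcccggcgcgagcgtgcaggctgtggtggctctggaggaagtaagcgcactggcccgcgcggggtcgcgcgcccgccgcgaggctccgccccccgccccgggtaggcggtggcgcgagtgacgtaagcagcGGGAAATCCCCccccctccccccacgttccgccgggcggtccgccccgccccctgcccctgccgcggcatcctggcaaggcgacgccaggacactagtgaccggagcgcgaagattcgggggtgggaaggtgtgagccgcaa
Nfkbia promoter, chr12:55492598-55492897, minus strand: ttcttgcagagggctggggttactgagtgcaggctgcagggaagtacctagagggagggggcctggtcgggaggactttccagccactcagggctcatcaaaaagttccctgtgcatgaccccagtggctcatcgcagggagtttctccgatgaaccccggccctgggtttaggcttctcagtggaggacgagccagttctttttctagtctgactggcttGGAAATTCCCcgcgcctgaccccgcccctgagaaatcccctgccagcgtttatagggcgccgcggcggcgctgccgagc
Tnfaip3 promoter, chr10:19015361-19015660, minus strand: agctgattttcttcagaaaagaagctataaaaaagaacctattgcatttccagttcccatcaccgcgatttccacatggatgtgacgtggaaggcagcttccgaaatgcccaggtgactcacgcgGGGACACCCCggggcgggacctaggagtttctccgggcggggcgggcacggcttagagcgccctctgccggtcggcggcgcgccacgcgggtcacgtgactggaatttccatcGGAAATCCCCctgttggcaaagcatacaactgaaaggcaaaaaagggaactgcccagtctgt
Birc3 promoter, chr9:7873121-7873420, minus strand: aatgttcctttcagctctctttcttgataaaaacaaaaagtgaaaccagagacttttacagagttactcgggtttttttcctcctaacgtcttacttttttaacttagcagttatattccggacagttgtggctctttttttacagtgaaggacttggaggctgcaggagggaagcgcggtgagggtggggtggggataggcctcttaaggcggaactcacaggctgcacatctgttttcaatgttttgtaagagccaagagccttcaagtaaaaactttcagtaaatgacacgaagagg
With the first transcribed base counted as 0, the matches began at -39, -38 and -11 in the Nfkb2 window, at -92 and -91 in the Rel window, at -29 in the Nfkbia window, and at -125 and -12 in the Tnfaip3 window. The AP-1 motif TGANTCA was present in 1 Nfkb2 window and in the Tnfaip3 window shown, against 7.81% of all windows. The letters TATAAA were present in the Nfkbia and Tnfaip3 windows shown, against 13.6% of all windows. A match is a run of letters and not a measured binding site.

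All values below are reads per 1000000 reads outside the mitochondrial chromosome (nuclear RPM), and the value of a gene is the sum over its regions. This is a level of open chromatin and not of RNA. The sums depend on how many regions a gene has and how wide they are, so levels are compared between groups and not between genes. In bulk samples, fewer open cells and less opening per cell cannot be told apart. Nuclear reads per library were 4756891 to 9829886 in DDC reprogrammed hepatocytes, 5151190 to 10395918 in DDC biliary cells, 1191409 to 2342643 in DDC hepatocytes, 2439831 to 4389653 in untreated biliary cells and 201705 to 605309 in untreated hepatocytes. The mitochondrial chromosome took 63.1% to 84.2% of the reads of untreated hepatocytes, and 1 read there was worth 1.65 to 4.96 nuclear RPM. Gene sums rested on as few as 5 reads in those libraries. The labels do not say whether the libraries of a group came from separate mice, so the p-values measure the spread between libraries, which may be technical. Fits with untreated hepatocytes shared 1 spread over all groups. It understates the spread of the untreated hepatocyte libraries, so p-values of comparisons with them may be too small.

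The marker genes went with the sort labels. The 12 hepatocyte markers summed to 673 to 1472 nuclear RPM in DDC reprogrammed hepatocytes, 464 to 930 in DDC biliary cells, 3737 to 5206 in DDC hepatocytes, 626 to 1596 in untreated biliary cells and 5007 to 7114 in untreated hepatocytes. The 12 biliary markers summed to 1230 to 1455 in DDC reprogrammed hepatocytes, 1860 to 2096 in DDC biliary cells, 421 to 545 in DDC hepatocytes, 1507 to 1732 in untreated biliary cells and 406 to 689 in untreated hepatocytes. The library spread of the biliary sums did not overlap between DDC reprogrammed hepatocytes and any other group.

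The tests were limma fits of log2(nuclear RPM + 1) over all genes or all regions, and adjusted p is the Benjamini-Hochberg value over all of them. A gene or region was called at an adjusted p under 0.05, and each log2 difference is on the log2(nuclear RPM + 1) scale with its standard error (SE). Genes with a mean of 1 nuclear RPM or more were tested, which all 8 genes passed. Of the 74 regions, 66 passed in the fit of 12 libraries without untreated hepatocytes, and 64 in the fit of all 15. Comparisons with untreated hepatocytes were fitted on all 15 libraries and the others on 12. Many calls of single regions depended on this choice and on depth. With all 15 libraries fitted, 42 region calls in the comparisons among the 4 deeper groups were lost and 23 kept, the region at the Tnfrsf12a start included. Over all comparisons, 38 region calls were lost and 54 kept with reads thinned to the lowest library of each fit, 20 were lost with the compared groups fitted alone, and 18 were lost in edgeR.

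DDC biliary cells differed from untreated biliary cells at Nfkbia, the main feedback inhibitor, and at Tnfrsf11a, the receptor RANK. Both were higher in DDC biliary cells, which is 2 of 8 genes, against 9.81% of all genes higher in this comparison. None of the 8 was lower, against 6.99% of all genes. The median difference over the 8 genes was 0.37, against -0.02 over all genes tested. Of 66 single regions, 12 were higher and 0 lower in DDC biliary cells, against 11.5% and 3.77% of all regions, and their median difference was 0.36, against 0.07 over all regions. The 12 regions lay at Tnfaip3 (4 of 11 tested), Nfkb1 (3 of 20), Nfkbia (2 of 5), Rel (1 of 2), Relb (1 of 4) and Tnfrsf11a (1 of 10). No region of Nfkb2 or Birc3 was called. Leaving out 1 library gave 1 to 4 genes called, and the Tnfrsf11a call was lost without any 1 of the 6 libraries compared.

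DDC hepatocytes were higher than untreated hepatocytes at Tnfrsf11a and lower at Birc3, which inhibits cell death and ubiquitinates adaptors of TNF receptors, though Birc3 turned to higher on the deposited scale. That is 1 gene of 8 in each direction, against 9.63% of all genes higher and 3.90% lower, and the median of the 8 genes was -0.03, against 0.21 over all genes. Of 64 regions, 5 were higher and 2 lower, against 9.94% and 2.20% of all regions. With the libraries of these 2 groups fitted alone, 0 of the 8 genes and 1 of all genes was called.

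DDC reprogrammed hepatocytes were higher than DDC hepatocytes at Relb, Nfkb2, Nfkbia and Tnfrsf11a, and at no gene lower. Relb and Nfkb2 encode the 2 subunits of the non-canonical pathway. These 4 of 8 genes stood against 21.8% of all genes higher and 13.3% lower, and the median of the 8 genes was 0.36, against 0.12 over all genes. Of 66 regions, 8 were higher and 5 lower, against 21.2% and 16.2% of all regions. Leaving out 1 library gave 2 to 4 genes called, and the Relb call held in each of these fits. The Relb call was lost with all 15 libraries, where 1 gene was called. TMM scaling and edgeR each gave 2 genes called.

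Between DDC reprogrammed hepatocytes and DDC biliary cells, 0 of the 8 genes were called in the limma test, against 0.739% of all genes higher and 0.996% lower. At an unadjusted p under 0.05 there was 1 gene, Tnfrsf11a, with a difference of -0.45 (SE 0.13, adjusted p = 0.0947). It was called when only these 2 groups were fitted (adjusted p = 0.0161) and by edgeR's quasi-likelihood test on the recovered reads (adjusted p = 0.0271). Of 66 regions 1 was called, lower in DDC reprogrammed hepatocytes, against 0.897% of all regions lower and 0.318% higher. The median of the 8 genes was -0.14, against 0.05 over all genes.

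DDC reprogrammed hepatocytes were higher than untreated biliary cells at Nfkbia and Birc3, 2 of 8 genes against 9.01% of all genes higher, and at none lower, against 5.38%. Of 66 regions, 8 were higher and 1 lower, against 9.53% and 4.60% of all regions. DDC biliary cells were higher than DDC hepatocytes at 5 of 8 genes (Relb, Tnfrsf11a, Nfkb2, Nfkbia and Tnfaip3), against 24.5% of all genes higher and 18.9% lower, and at 20 of 66 regions higher and 7 lower, against 28.6% and 21.4% of all regions. Untreated biliary cells were higher than untreated hepatocytes at Tnfrsf11a, Nfkb2 and Relb and lower at Birc3, Nfkb1 and Nfkbia, which all 3 turned to higher on the deposited scale, against 25.7% of all genes higher and 13.4% lower. Of 64 regions there, 11 were higher and 6 lower, against 22.1% and 10.9% of all regions. The comparisons share libraries, so their calls are not independent of each other.

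**Figure D1:**
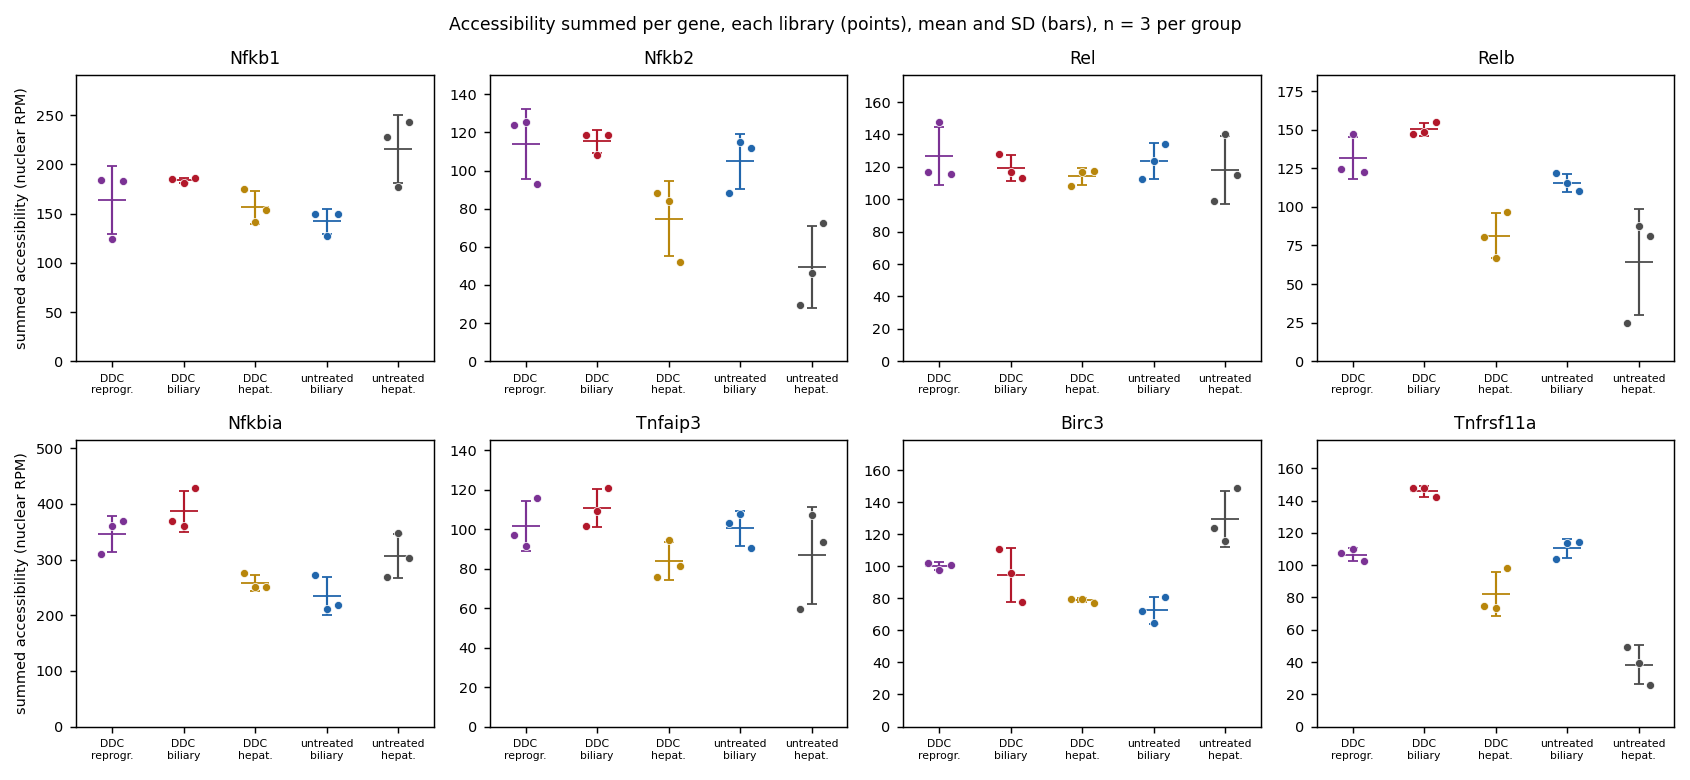
Summed nuclear RPM (linear axis from 0) of the 8 genes with regions, 1 panel a gene, with 1 point a library and bars at the mean and SD of each group of 3. At Tnfrsf11a the 3 DDC biliary points, from 142 to 148, lie above all others, and at Rel all groups overlap.

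**Figure D2:**
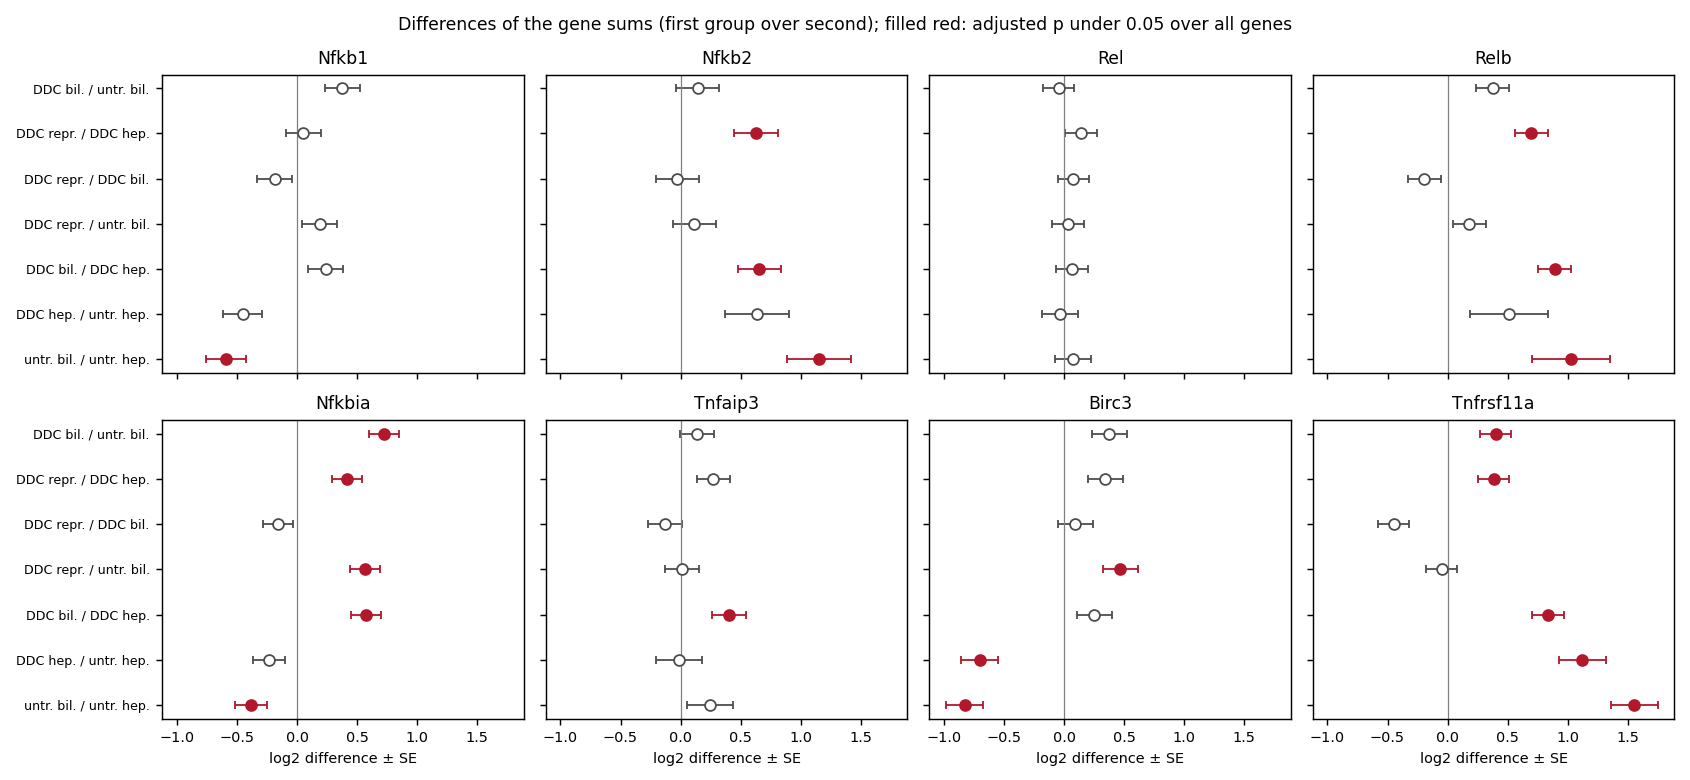
Log2 differences of the gene sums in each comparison, the first-named group over the second, with bars of 1 SE. Filled red points have an adjusted p under 0.05 over all genes. Relb, Nfkb2, Nfkbia and Tnfrsf11a are filled for DDC reprogrammed hepatocytes against DDC hepatocytes, and none is filled for DDC reprogrammed hepatocytes against DDC biliary cells.

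Nfkb1 encodes p105, which is processed to the p50 subunit of canonical NF-kB. Its 23 regions summed to 184, 124 and 183 nuclear RPM in the 3 libraries of DDC reprogrammed hepatocytes, 185, 181 and 186 in DDC biliary cells, 175, 141 and 154 in DDC hepatocytes, 149, 127 and 149.7 in untreated biliary cells, and 228, 177 and 243 in untreated hepatocytes. DDC biliary cells were tightly grouped above all untreated biliary libraries, but the difference of 0.37 (SE 0.15) had an adjusted p of 0.0853. The sum was called in 1 comparison, with untreated biliary cells lower than untreated hepatocytes by a log2 difference of -0.59 (SE 0.16, adjusted p = 0.0103), which turned to 1.29 on the deposited scale with mitochondrial reads in the total. Its adjusted p was 0.0516 without untreated biliary library 2 and 0.0521 with the compared groups fitted alone. With the midpoint rule kept to the gene body, the sum was called in DDC biliary against untreated biliary cells (0.54, adjusted p = 0.0360).

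The single regions of Nfkb1 moved in both directions. The region chr3:135640113-135641891, inside the body, had 7.67, 3.97 and 7.36 nuclear RPM in DDC reprogrammed hepatocytes, 10.6, 9.90 and 8.50 in DDC biliary cells, 3.41, 4.79 and 1.68 in DDC hepatocytes, 0, 2.46 and 1.37 in untreated biliary cells, and 0, 3.30 and 0 in untreated hepatocytes. Both DDC biliary cells and DDC reprogrammed hepatocytes were above untreated biliary cells with no overlap. The differences were 2.40 (SE 0.45, adjusted p = 0.000658) for DDC biliary cells and 1.82 (SE 0.45, adjusted p = 0.00745, and 0.141 with all 15 libraries) for DDC reprogrammed hepatocytes.

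A second region of the body, chr3:135668852-135671294, had 19.0, 12.8 and 20.6 nuclear RPM in DDC reprogrammed hepatocytes, 21.5, 21.2 and 23.6 in DDC biliary cells, 5.98, 4.79 and 5.04 in DDC hepatocytes, 9.82, 8.61 and 13.4 in untreated biliary cells, and 0, 0 and 17.0 in untreated hepatocytes. DDC hepatocytes were the lowest of the 4 deeper groups, without overlap. DDC reprogrammed hepatocytes exceeded them by 1.54 (SE 0.29, adjusted p = 0.000278), and DDC biliary cells by 1.88 (SE 0.29, adjusted p = 1.33e-05). With all 15 libraries these had adjusted p of 0.203 and 0.0832. The difference of DDC biliary from untreated biliary cells was 1.01 (SE 0.29, adjusted p = 0.0190), with adjusted p of 0.0745 without DDC biliary library 1, 0.0933 without DDC biliary library 3, 0.0826 without untreated biliary library 2 and 0.673 with all 15 libraries.

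The Nfkb1 region at the higher-coordinate end of the body, chr3:135690318-135693223, held 30.2% of the sum and went the other way. It had 48.3, 35.9 and 44.8 nuclear RPM in DDC reprogrammed hepatocytes, 35.4, 41.0 and 38.4 in DDC biliary cells, 64.5, 48.4 and 58.8 in DDC hepatocytes, 43.1, 42.6 and 61.1 in untreated biliary cells, and 94.2, 57.8 and 68.1 in untreated hepatocytes. DDC biliary cells were below DDC hepatocytes in all libraries, by -0.56 (SE 0.20, adjusted p = 0.0196), a call lost under TMM scaling (adjusted p = 0.0784), in edgeR (adjusted p = 0.0679), with thinned reads (0.163), with all 15 libraries (0.0822), and without DDC biliary library 1 (0.0791), DDC biliary library 3 (0.0513) or DDC hepatocyte library 1 (0.0735). The small region chr3:135605578-135605918 was also a hepatocyte one: 0.548, 0.814 and 0.841 in DDC reprogrammed hepatocytes and 0.192, 0.388 and 0.293 in DDC biliary cells, against 2.13, 9.10 and 3.36 in DDC hepatocytes. Against DDC hepatocytes it was lower by 1.58 in DDC reprogrammed hepatocytes (adjusted p = 0.00836, and 0.0590 with all 15 libraries). It was lower by 2.003 in DDC biliary cells (adjusted p = 0.000779). Untreated biliary cells, at 0.756, 0 and 1.37, were also below untreated hepatocytes, at 9.92, 4.96 and 17.0, by -2.71 (SE 0.54, adjusted p = 0.00122, and 0.183 with thinned reads).

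Also in the Nfkb1 body, chr3:135673190-135676681 had 28.6, 18.1 and 39.9 nuclear RPM in DDC reprogrammed hepatocytes, 28.8, 25.4 and 35.2 in DDC biliary cells, 24.3, 19.2 and 8.39 in DDC hepatocytes, 15.5, 6.56 and 12.8 in untreated biliary cells, and 0, 13.2 and 17.0 in untreated hepatocytes. It was lower in untreated biliary cells than in DDC biliary and DDC reprogrammed cells with no overlap. DDC biliary cells were higher by 1.35 (SE 0.35, adjusted p = 0.00836, with 0.0562 without DDC biliary library 3, 0.0755 without untreated biliary library 2 and 0.488 with all 15 libraries). The region chr3:135631078-135633121 was the one of the body called higher in DDC hepatocytes, at 6.40, 4.79 and 6.72, than in untreated hepatocytes, at 0, 3.30 and 0, with a difference of 2.09 (SE 0.54, adjusted p = 0.0193). Its adjusted p was 0.0614 without DDC hepatocyte library 1 and 0.0508 without library 3. The call was also lost in edgeR (adjusted p = 0.190), with the compared groups fitted alone (0.362) and with thinned reads (a difference of 0.86, adjusted p = 0.816).

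Nfkb2 encodes p100, the precursor of the p52 subunit. Its 2 regions summed to 124, 125 and 92.9 nuclear RPM in DDC reprogrammed hepatocytes, 119, 108 and 119 in DDC biliary cells, 88.4, 83.8 and 52.0 in DDC hepatocytes, 88.4, 115 and 112 in untreated biliary cells, and 29.7, 46.3 and 72.4 in untreated hepatocytes. No library of the biliary and reprogrammed groups was below 88.4, and no hepatocyte library was above it. DDC reprogrammed hepatocytes averaged 114 ± 18.3 and DDC hepatocytes 74.7 ± 19.8 (SD, n = 3 each), a difference of 0.63 (SE 0.18, adjusted p = 0.0105), whose adjusted p was 0.0529 without DDC reprogrammed library 1, 0.0553 without library 2, 0.0644 with thinned reads and 0.136 with all 15 libraries. The difference of DDC biliary cells from DDC hepatocytes was 0.65 (SE 0.18, adjusted p = 0.00592, and 0.0896 with all 15 libraries), and untreated biliary cells exceeded untreated hepatocytes by 1.15 (SE 0.27, adjusted p = 0.00348).

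Nfkb2 showed no call for DDC in either cell type, with 0.14 (SE 0.18, adjusted p = 0.651) in biliary cells and 0.64 (SE 0.27, adjusted p = 0.117) in hepatocytes. The region chr19:46303855-46306515 held 94.6% of the sum and all 3 promoter windows, and it also overlaps the lncRNA 4833438C02Rik. Its values were 118, 117 and 90.8 nuclear RPM in DDC reprogrammed hepatocytes, 112, 104 and 109.7 in DDC biliary cells, 84.5, 80.9 and 48.7 in DDC hepatocytes, 80.9, 105 and 105 in untreated biliary cells, and 29.7, 46.3 and 68.1 in untreated hepatocytes. The other Nfkb2 region, chr19:46308552-46309487 in the body, was higher in untreated biliary cells, at 7.56, 9.84 and 6.61, than in untreated hepatocytes, at 0, 0 and 4.26, by 2.36 (SE 0.62, adjusted p = 0.00799). That adjusted p was 0.0979 with the compared groups fitted alone and 0.585 with thinned reads.

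Rel encodes c-Rel, a subunit best known from lymphocytes. Its 2 regions summed to 117, 148 and 116 nuclear RPM in DDC reprogrammed hepatocytes, 128, 117 and 113 in DDC biliary cells, 108, 117 and 118 in DDC hepatocytes, 112, 124 and 134 in untreated biliary cells, and 99.2, 140.4 and 115 in untreated hepatocytes. The groups overlapped in every comparison, and no comparison of the sum was called. The log2 differences lay between -0.05 and 0.14 for the 7 pairs of groups. The region with the start and the promoter shown above, chr11:23769702-23772169, held 97.2% of the sum and had no call, with library values between 99.2 and 146.

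The second Rel region behaved differently. It is 769 bp wide at chr11:23754063-23754831, inside the body and 16522 bp downstream of the start, and had 2.63, 1.02 and 5.47 nuclear RPM in DDC reprogrammed hepatocytes, 9.43, 5.82 and 10.3 in DDC biliary cells, 1.28, 0.958 and 1.68 in DDC hepatocytes, 1.51, 0 and 0.456 in untreated biliary cells, and 0, 6.61 and 4.26 in untreated hepatocytes. All 3 DDC biliary libraries were above all libraries of the other 3 deeper groups. The region was higher in DDC biliary cells than in untreated biliary cells by 2.59 (SE 0.47, adjusted p = 0.000474) and than in DDC hepatocytes by 2.02 (SE 0.47, adjusted p = 0.00100). The difference of DDC reprogrammed hepatocytes from untreated biliary cells was 1.23 (SE 0.47, adjusted p = 0.0840), and that from DDC biliary cells was -1.36 (SE 0.47, adjusted p = 0.168). Of the 12 regions called in DDC biliary against untreated biliary cells, this one had the highest log2 difference.

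Relb encodes RelB, which pairs with p52. Its 5 regions summed to 125, 148 and 123 nuclear RPM in DDC reprogrammed hepatocytes, 147, 149 and 155 in DDC biliary cells, 80.7, 67.0 and 96.5 in DDC hepatocytes, 122, 115 and 110.0 in untreated biliary cells, and 24.8, 87.6 and 80.9 in untreated hepatocytes. The 3 biliary and reprogrammed groups lay above both hepatocyte groups with no overlap. DDC reprogrammed hepatocytes averaged 132 ± 13.8 and DDC hepatocytes 81.4 ± 14.8 (SD, n = 3 each), a difference of 0.70 (SE 0.14, adjusted p = 0.000684, and 0.177 with all 15 libraries). DDC biliary cells exceeded DDC hepatocytes by 0.89 (SE 0.14, adjusted p = 3.21e-05, and 0.0579 with all 15 libraries), and untreated biliary cells exceeded untreated hepatocytes by 1.03 (SE 0.33, adjusted p = 0.0209), with adjusted p of 0.0587 without untreated biliary library 1, 0.0550 without library 2, 0.144 with these groups fitted alone and 0.0625 in edgeR.

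DDC biliary libraries were also all above untreated biliary libraries at Relb, by 0.38 (SE 0.14), which had an adjusted p of 0.0695 in limma and 0.0277 in edgeR. The region at the higher-coordinate end of the body, chr7:19627907-19630703, held 89.8% of the sum and carried the difference from hepatocytes, with 0.70 (SE 0.15, adjusted p = 0.000690, and 0.177 with all 15 libraries) for DDC reprogrammed hepatocytes against DDC hepatocytes. The region called in DDC biliary against untreated biliary cells was another, chr7:19623406-19625131, inside the body. It had 3.62, 1.93 and 2.52 nuclear RPM in DDC reprogrammed hepatocytes, 7.60, 4.66 and 4.40 in DDC biliary cells, 4.27, 3.83 and 0 in DDC hepatocytes, 0, 0.820 and 0 in untreated biliary cells, and 4.96, 0 and 8.52 in untreated hepatocytes. Untreated biliary cells were close to 0 there, and DDC biliary cells were higher by 2.39 (SE 0.52, adjusted p = 0.00251, and 0.1001 with all 15 libraries). Near the other end of the body, chr7:19608972-19610199 had 3.37, 3.88 and 3.91 in DDC biliary cells, against 0.854, 0 and 1.68 in DDC hepatocytes, a difference of 1.47 (SE 0.46, adjusted p = 0.0103, and 0.0709 without DDC hepatocyte library 2).

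**Figure D3:**
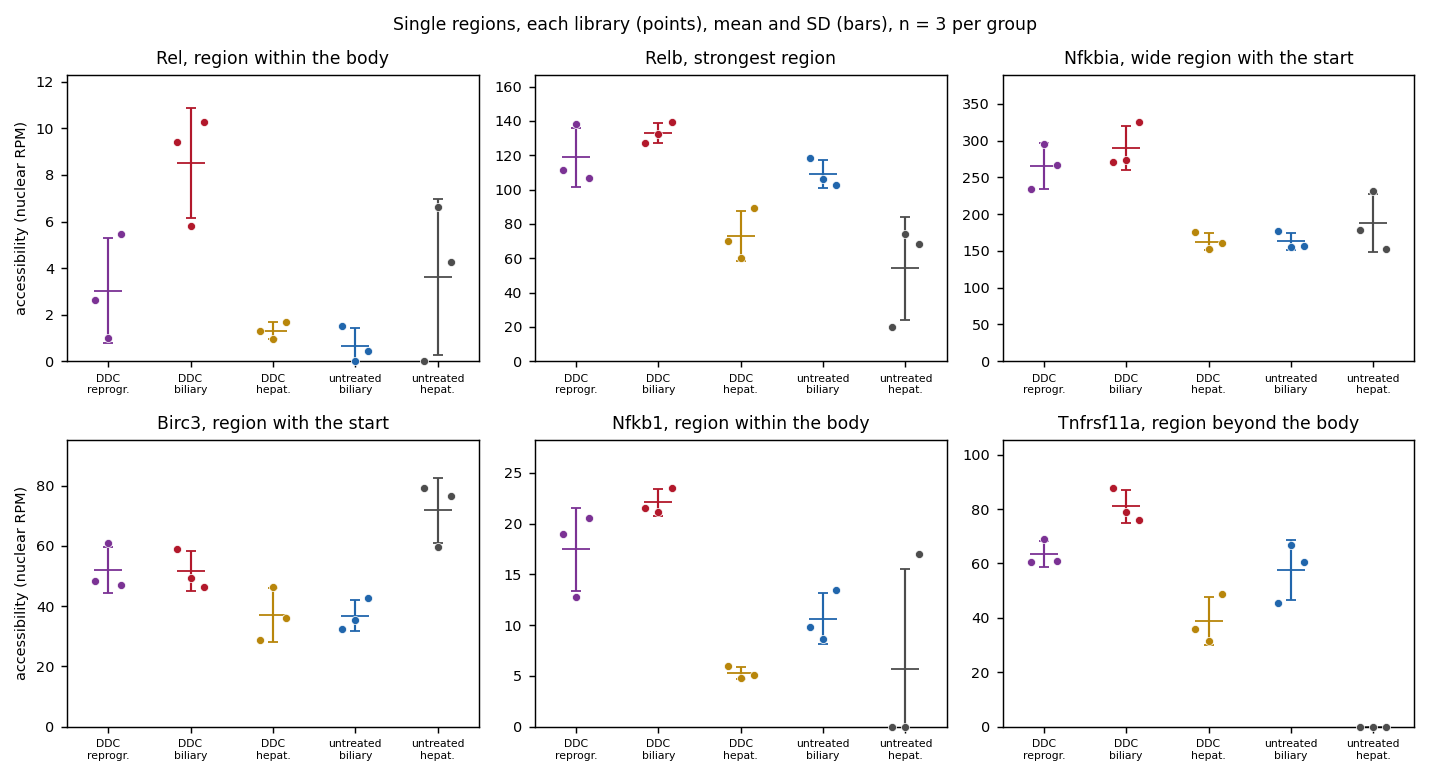
Nuclear RPM (linear axis from 0) of 6 single regions, 1 panel a region, with 1 point a library and bars at the mean and SD of each group of 3. Among the 4 deeper groups the Rel region inside the body is highest in the 3 DDC biliary libraries, and the Tnfrsf11a region beyond the body is at 0 in all 3 untreated hepatocyte libraries.

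Nfkbia encodes IkB-alpha, which NF-kB itself induces and which ends the response. Its 6 regions summed to 309.5, 359 and 369 nuclear RPM in DDC reprogrammed hepatocytes, 369.6, 360.3 and 429 in DDC biliary cells, 275, 249.96 and 250.1 in DDC hepatocytes, 273, 211 and 218 in untreated biliary cells, and 268, 347 and 302 in untreated hepatocytes. The DDC biliary and DDC reprogrammed libraries all lay above the DDC hepatocyte and untreated biliary libraries. DDC biliary cells averaged 386 ± 37.3 and untreated biliary cells 234 ± 33.6 (SD, n = 3 each), a difference of 0.72 (SE 0.12, adjusted p = 0.000636). DDC reprogrammed hepatocytes averaged 346 ± 31.9 and exceeded untreated biliary cells by 0.57 (SE 0.12, adjusted p = 0.00457).

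Against DDC hepatocytes, Nfkbia was higher by 0.58 in DDC biliary cells (SE 0.12, adjusted p = 0.000821) and by 0.42 in DDC reprogrammed hepatocytes (SE 0.12, adjusted p = 0.0129). The second of these calls was lost under TMM scaling (0.32, adjusted p = 0.0523), in edgeR (0.33, adjusted p = 0.0537) and without DDC reprogrammed library 3 (0.37, adjusted p = 0.05004). In hepatocytes the DDC difference was -0.24 (SE 0.13, adjusted p = 0.240). The DDC difference in biliary cells minus that in hepatocytes was 0.96 (SE 0.19, adjusted p = 0.0164), a call that turned to -0.47 on the deposited scale and had adjusted p of 0.0531 and 0.0629 without DDC biliary library 1 or 3, 0.0570 and 0.0517 without untreated biliary library 2 or 3, and 0.182 with thinned reads. Nfkbia and Birc3 were the 2 genes of 8 with this difference called, both higher in biliary cells, against 1.03% of all genes higher and 1.75% lower. Of 64 regions, 2 were higher and 1 lower by it, against 0.554% and 1.80% of all regions. Untreated biliary cells were lower than untreated hepatocytes by -0.38 (SE 0.13, adjusted p = 0.0339), which turned to 1.51 on the deposited scale and had adjusted p of 0.134 without untreated biliary library 2, 0.113 without untreated biliary library 3, 0.103 without untreated hepatocyte library 2, 0.152 with these groups fitted alone and 0.125 with thinned reads.

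Most of the Nfkbia sum, 69.8%, came from 1 very wide region, chr12:55478697-55493489. It spans 14793 bp, covers the start and the promoter shown above, and has its midpoint 3316 bp beyond the body. It had 234, 296 and 266 nuclear RPM in DDC reprogrammed hepatocytes, 271, 273 and 325 in DDC biliary cells, 175, 152 and 160.3 in DDC hepatocytes, 177, 156 and 157 in untreated biliary cells, and 178, 231 and 153 in untreated hepatocytes. The DDC biliary and DDC reprogrammed libraries were the highest of all 15. DDC biliary cells exceeded untreated biliary cells by 0.82 (SE 0.11, adjusted p = 1.58e-05), and DDC reprogrammed hepatocytes exceeded DDC hepatocytes by 0.70 (SE 0.11, adjusted p = 3.7e-05) and untreated biliary cells by 0.69 (SE 0.11, adjusted p = 0.000108). Of the alternatives run, none ended these 3 calls.

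Other Nfkbia regions took other courses. The region chr12:55464019-55468034, 26621 bp downstream of the start, had 37.7, 22.4 and 48.6 nuclear RPM in DDC reprogrammed hepatocytes, 37.5, 31.1 and 42.5 in DDC biliary cells, 37.6, 41.7 and 50.4 in DDC hepatocytes, 28.3, 13.1 and 16.4 in untreated biliary cells, and 29.7, 56.2 and 29.8 in untreated hepatocytes. It was lowest in untreated biliary cells, with DDC biliary cells higher by 0.97 (SE 0.27, adjusted p = 0.0160), which was 0.0645 without DDC biliary library 1, 0.0936 without library 3, 0.112 without untreated biliary library 2, 0.0735 without library 3 and 0.163 with all 15 libraries. The region chr12:55473125-55474360, 18905 bp downstream, was a hepatocyte one, with 5.48, 6.10 and 8.20 in DDC reprogrammed hepatocytes, 4.71, 5.05 and 4.10 in DDC biliary cells, 24.8, 23.9 and 10.1 in DDC hepatocytes, 14.4, 6.97 and 4.10 in untreated biliary cells, and 39.7, 46.3 and 68.1 in untreated hepatocytes. Both hepatocyte groups were above DDC reprogrammed hepatocytes and DDC biliary cells with no overlap. Against DDC hepatocytes the region was lower by 1.36 in DDC reprogrammed hepatocytes (adjusted p = 0.00880, and 0.0581 with all 15 libraries). It was lower by 1.78 in DDC biliary cells (adjusted p = 0.000619). It was also lower in untreated biliary cells than in untreated hepatocytes, by -2.58 (SE 0.46, adjusted p = 0.000592, and 0.0578 with thinned reads).

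Tnfaip3 encodes A20, a ubiquitin-editing enzyme that shuts off signalling from TNF receptors to NF-kB. Its 12 regions summed to 97.2, 91.6 and 116 nuclear RPM in DDC reprogrammed hepatocytes, 102, 109 and 121 in DDC biliary cells, 75.6, 94.3 and 81.4 in DDC hepatocytes, 103, 108 and 90.4 in untreated biliary cells, and 59.5, 107 and 93.7 in untreated hepatocytes. The sum was called in 1 comparison, with DDC biliary cells above DDC hepatocytes by 0.40 (SE 0.14, adjusted p = 0.0263). That adjusted p was 0.0604 without DDC biliary library 2, 0.124 without DDC biliary library 3, 0.0886 without DDC hepatocyte library 1, 0.0595 in edgeR, 0.0811 with thinned reads, 0.154 with all 15 libraries and 0.114 within the body alone.

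The regions of Tnfaip3 called between DDC biliary and untreated biliary cells did not include its start region. The start region, chr10:19011533-19016377, held 59.8% of the sum and had 58.4, 62.0 and 52.1 nuclear RPM in DDC reprogrammed hepatocytes, 54.0, 57.9 and 58.5 in DDC biliary cells, 45.2, 54.6 and 45.3 in DDC hepatocytes, 72.9, 83.2 and 65.2 in untreated biliary cells, and 49.6, 57.8 and 51.1 in untreated hepatocytes. Untreated biliary libraries were the highest of all, but the difference of DDC biliary from untreated biliary cells, -0.37 (SE 0.17), had an adjusted p of 0.150.

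Of the other regions, 4 were called higher in DDC biliary than in untreated biliary cells and 0 lower. The region chr10:18987600-18988308, 24009 bp downstream of the nearest listed start, had 3.73, 1.42 and 6.94 in DDC reprogrammed hepatocytes, 2.98, 3.69 and 3.42 in DDC biliary cells, 2.99, 0.958 and 1.68 in DDC hepatocytes, 0, 0.820 and 0 in untreated biliary cells, and 0, 3.30 and 0 in untreated hepatocytes. Compared with untreated biliary cells, DDC biliary cells were higher there by 1.83 (SE 0.47, adjusted p = 0.00836, and 0.111 with all 15 libraries), and DDC reprogrammed hepatocytes did so by 1.88 (SE 0.47, adjusted p = 0.00757, with 0.0715 without DDC reprogrammed library 3 and 0.111 with all 15 libraries).

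The Tnfaip3 region chr10:19046036-19046410, 30813 bp upstream, had 1.42, 1.73 and 4.20 in DDC reprogrammed hepatocytes, 4.14, 1.75 and 3.03 in DDC biliary cells, 0.427, 0 and 2.52 in DDC hepatocytes, 0, 0 and 0.228 in untreated biliary cells, and 0 in all 3 untreated hepatocyte libraries. It was near 0 in untreated biliary cells, and DDC biliary cells were higher by 1.84 (SE 0.47, adjusted p = 0.00857, and 0.0641 without DDC biliary library 1). Inside the body, chr10:19007695-19009949 had 15.3, 11.8 and 24.8 in DDC reprogrammed hepatocytes, 15.8, 21.4 and 23.4 in DDC biliary cells, 13.7, 16.3 and 13.4 in DDC hepatocytes, 10.6, 8.20 and 10.3 in untreated biliary cells, and 0, 23.1 and 34.1 in untreated hepatocytes. The difference of DDC biliary from untreated biliary cells there was 0.98 (SE 0.29, adjusted p = 0.0233), with adjusted p of 0.0776 without DDC biliary library 2, 0.130 without DDC biliary library 3, 0.0899 without untreated biliary library 2, 0.0551 without untreated biliary library 3 and 0.753 with all 15 libraries.

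The last of the 4 Tnfaip3 regions, chr10:19062035-19062716, lies 46965 bp beyond the body. It had 3.40, 1.42 and 2.94 nuclear RPM in DDC reprogrammed hepatocytes, 9.14, 4.27 and 3.52 in DDC biliary cells, 2.13, 3.83 and 1.68 in DDC hepatocytes, 1.89, 1.23 and 0.683 in untreated biliary cells, and 0, 3.30 and 0 in untreated hepatocytes. The call rested on single libraries, with adjusted p of 0.193 without DDC biliary library 1, 0.0569 without untreated biliary library 2 and 0.105 without untreated biliary library 3. It was also lost with all 15 libraries (0.199) and with thinned reads (0.741).

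Birc3 encodes cIAP2, which is recruited by TRAF adaptors to TNF receptors. Its 14 regions summed to 102, 97.4 and 100.9 nuclear RPM in DDC reprogrammed hepatocytes, 111, 95.9 and 77.4 in DDC biliary cells, 79.4, 79.5 and 77.2 in DDC hepatocytes, 71.8, 64.3 and 81.1 in untreated biliary cells, and 124, 116 and 149 in untreated hepatocytes. Untreated hepatocytes were the highest group and overlapped no other, and DDC reprogrammed hepatocytes were tightly grouped above DDC hepatocytes and untreated biliary cells. DDC reprogrammed hepatocytes exceeded untreated biliary cells by 0.47 (SE 0.15, adjusted p = 0.0363). That call was lost without any 1 of the 3 DDC reprogrammed libraries, DDC biliary library 2, untreated biliary library 1 or untreated biliary library 2, with adjusted p between 0.0519 and 0.159. It was also lost with all 15 libraries (0.142) and with thinned reads (0.327).

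DDC hepatocytes were lower than untreated hepatocytes at Birc3 by -0.70 (SE 0.16, adjusted p = 0.0101), and untreated biliary cells were lower than untreated hepatocytes by -0.83 (SE 0.16, adjusted p = 0.000819). On the deposited scale these turned to 0.86 and 1.04. The first had an adjusted p of 0.224 with its 2 groups fitted alone and 0.488 with thinned reads. The DDC difference in biliary cells minus that in hepatocytes was 1.08 (SE 0.22, adjusted p = 0.0188), which turned to -0.34 on the deposited scale and had adjusted p of 0.0769 without DDC biliary library 1, 0.0515 without DDC biliary library 2, 0.0620 without untreated biliary library 2, 0.0514 with the 4 groups fitted alone and 0.363 with thinned reads. Nuclear reads at Birc3 were 25 to 70 per untreated hepatocyte library.

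The start region of Birc3, chr9:7871182-7873535, held 52.4% of the sum and had 48.3, 60.8 and 47.1 nuclear RPM in DDC reprogrammed hepatocytes, 59.1, 49.3 and 46.3 in DDC biliary cells, 28.6, 46.4 and 36.1 in DDC hepatocytes, 32.5, 35.2 and 42.6 in untreated biliary cells, and 79.3, 59.5 and 76.6 in untreated hepatocytes. DDC hepatocytes were below untreated hepatocytes in all libraries by -0.95 (SE 0.23, adjusted p = 0.0136), which turned to 0.60 on the deposited scale. The call was lost in edgeR (-0.31, adjusted p = 0.599), under TMM scaling (-0.32, adjusted p = 0.419), with these groups fitted alone (0.275), with thinned reads (0.293) and without DDC hepatocyte library 1 (0.0641). At 15397 bp downstream of the start, chr9:7857406-7858141 had 1.10, 1.22 and 2.73 in DDC reprogrammed hepatocytes, 1.73, 1.16 and 1.86 in DDC biliary cells, 11.5, 8.14 and 6.71 in DDC hepatocytes, 1.51, 0 and 1.37 in untreated biliary cells, and 19.8, 14.9 and 0 in untreated hepatocytes. DDC hepatocytes were far above the biliary and reprogrammed groups. Against DDC hepatocytes the region was lower by 1.89 in DDC reprogrammed hepatocytes (adjusted p = 0.00200). It was lower by 1.90 in DDC biliary cells (adjusted p = 0.00110). With all 15 libraries these had adjusted p of 0.143 and 0.102.

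The Birc3 region chr9:7891087-7891446, 18061 bp beyond the body on the side of the start, had the same order. It had 0.438, 1.12 and 1.47 nuclear RPM in DDC reprogrammed hepatocytes and 0.192, 1.36 and 0.684 in DDC biliary cells, against 8.54, 3.35 and 4.20 in DDC hepatocytes. Against DDC hepatocytes it was lower by 1.61 in DDC reprogrammed hepatocytes (adjusted p = 0.0128). That adjusted p was 0.0734 without DDC reprogrammed library 1 and 0.0640 without DDC hepatocyte library 1. It was 0.0879 with all 15 libraries and 0.216 with thinned reads. In DDC biliary cells the region was lower by 1.84 (adjusted p = 0.00347). Untreated biliary cells had 3.02, 0 and 0.456 there, against 4.96, 14.9 and 21.3 in untreated hepatocytes, a difference of -2.83 (SE 0.61, adjusted p = 0.00231, with 0.0575 for these groups alone and 0.0642 with thinned reads). The start region, in contrast, had a difference of 0.50 (SE 0.20, adjusted p = 0.0571) between DDC reprogrammed hepatocytes and DDC hepatocytes.

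At the far end of Birc3, chr9:7844911-7848281 had 21.8, 11.9 and 21.9 nuclear RPM in DDC reprogrammed hepatocytes, 17.8, 8.54 and 10.5 in DDC biliary cells, 12.8, 3.83 and 8.39 in DDC hepatocytes, 3.40, 5.74 and 12.3 in untreated biliary cells, and 0, 11.6 and 17.0 in untreated hepatocytes. DDC reprogrammed hepatocytes exceeded untreated biliary cells by 1.36 (SE 0.41, adjusted p = 0.0271) although 1 library of each group overlapped. That call was lost without DDC reprogrammed library 1 or 3 or untreated biliary library 1 or 2, with adjusted p between 0.0888 and 0.126, with all 15 libraries (0.522) and with thinned reads (0.0633). In the body, chr9:7855398-7856353 had 6.40, 2.87 and 4.20 in DDC hepatocytes and 0 in all untreated hepatocyte libraries (adjusted p = 0.00443). In untreated hepatocytes 3 counts over the group would be worth 2.88 nuclear RPM, which DDC hepatocyte library 2 did not exceed. DDC reprogrammed hepatocytes had 4.17, 3.26 and 4.41, DDC biliary cells 1.92, 7.57 and 2.93, and untreated biliary cells 4.53, 4.10 and 2.28. The call between DDC and untreated hepatocytes was lost with those groups fitted alone (adjusted p = 0.275), in edgeR (0.0614) and with thinned reads (0.813).

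**Figure D4:**
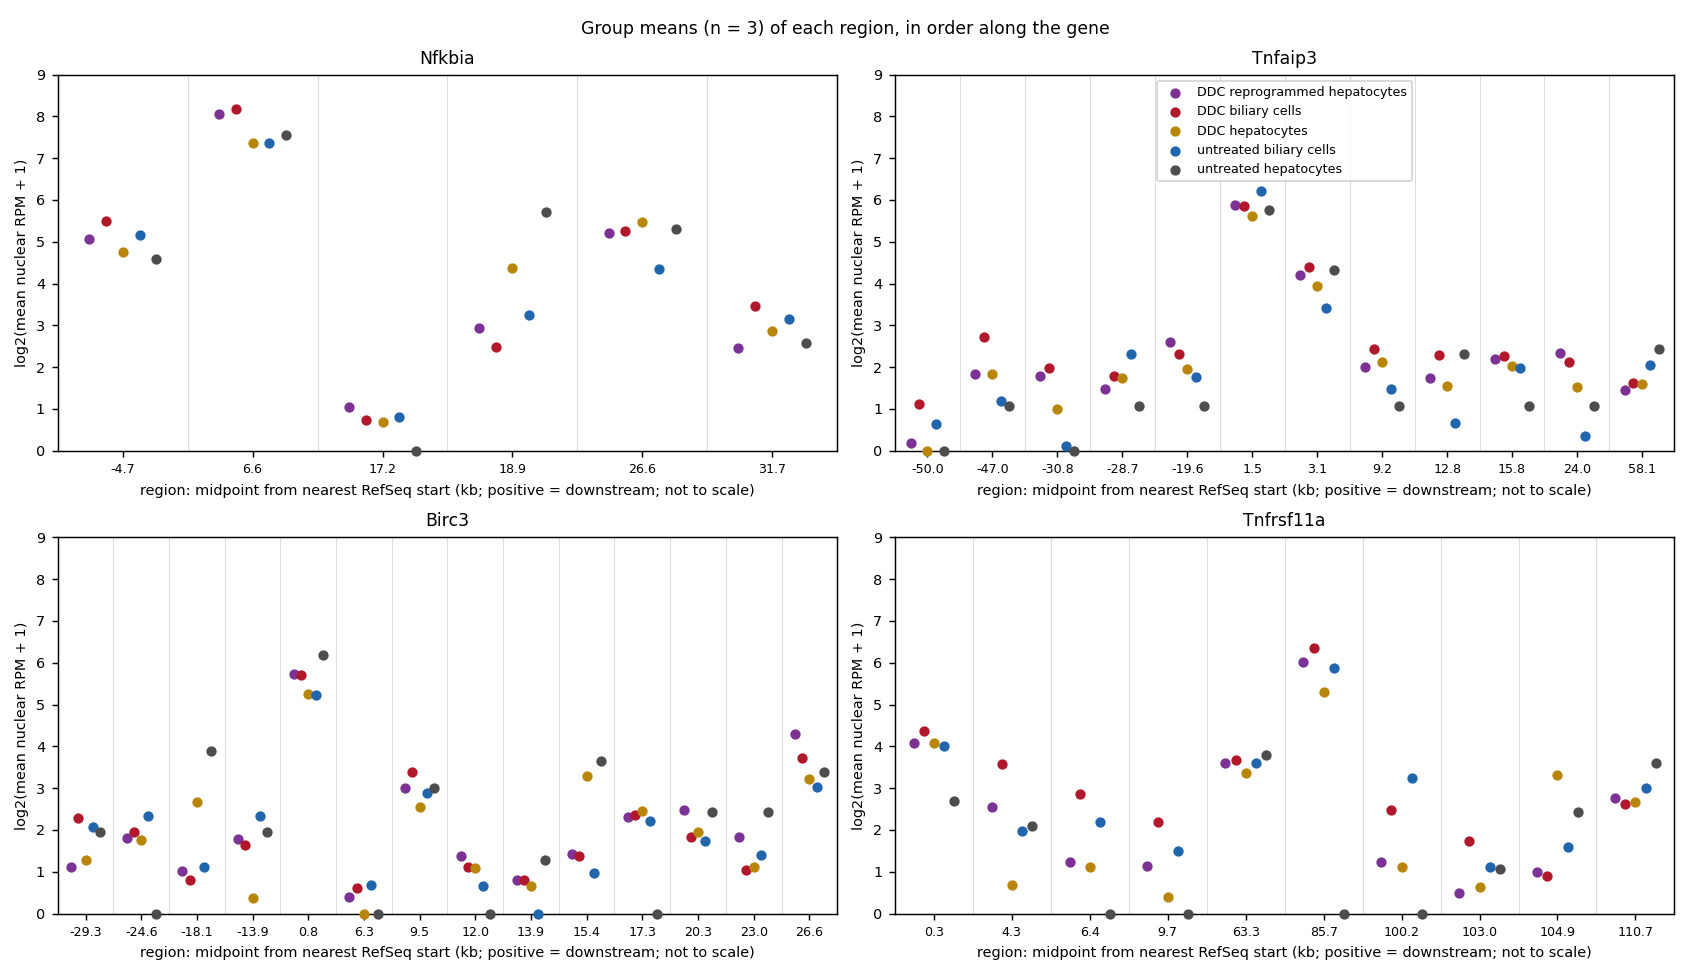
Group mean of each region of Nfkbia, Tnfaip3, Birc3 and Tnfrsf11a as log2(mean nuclear RPM + 1), in order of the distance of the midpoint from the nearest RefSeq start in kb (negative is upstream, and the spacing is not to scale). At Nfkbia the wide region with the start is highest in DDC biliary and DDC reprogrammed cells, while the region 18.9 kb downstream is highest in the hepatocyte groups.

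Tnfrsf11a encodes RANK, a TNF receptor best known from osteoclasts, which signals to both NF-kB branches. Its 10 regions summed to 108, 109.9 and 102 nuclear RPM in DDC reprogrammed hepatocytes, 148, 148 and 142 in DDC biliary cells, 74.7, 73.7 and 98.2 in DDC hepatocytes, 104, 114 and 114 in untreated biliary cells, and 49.6, 39.6 and 25.5 in untreated hepatocytes. The 3 DDC biliary libraries were the highest of all, the untreated hepatocyte libraries were the lowest, and DDC reprogrammed hepatocytes overlapped only untreated biliary cells. DDC biliary cells averaged 146 ± 3.43 and DDC hepatocytes 82.2 ± 13.9 (SD, n = 3 each), a difference of 0.83 (SE 0.13, adjusted p = 3.84e-05).

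DDC reprogrammed hepatocytes averaged 107 ± 3.85 at Tnfrsf11a and exceeded DDC hepatocytes by 0.38 (SE 0.13, adjusted p = 0.0293). That adjusted p was 0.0767 without DDC reprogrammed library 1, 0.0726 without DDC reprogrammed library 2, 0.0889 without DDC hepatocyte library 1, 0.113 without DDC hepatocyte library 2, 0.0929 under TMM scaling, 0.0986 in edgeR, 0.114 with these groups fitted alone, 0.221 with all 15 libraries and 0.193 within the body alone. DDC biliary cells exceeded untreated biliary cells by 0.40 (SE 0.13, adjusted p = 0.0432). That call was lost without any 1 of the 6 libraries compared or without DDC reprogrammed library 1, with adjusted p between 0.0556 and 0.139. It was also lost with all 15 libraries (0.325), with thinned reads (0.32, adjusted p = 0.227), within the body alone (0.59, adjusted p = 0.0656) and with regions tied to the nearest of all RefSeq genes (0.0602). DDC hepatocytes exceeded untreated hepatocytes by 1.12 (SE 0.20, adjusted p = 0.00254), and untreated biliary cells exceeded untreated hepatocytes by 1.55 (SE 0.20, adjusted p = 4.46e-05). With DDC and untreated hepatocytes fitted alone the first had an adjusted p of 0.210. Within the gene body alone these 2 differences were 0.46 (adjusted p = 0.417) and 0.81 (adjusted p = 0.0930).

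The region behind this was chr1:105864891-105867974, which held 49.8% of the sum. It lies 16988 bp beyond the body and inside the lncRNA Gm41926, so that the matrix does not say which gene it belongs to. It had 60.7, 69.2 and 61.0 nuclear RPM in DDC reprogrammed hepatocytes, 87.9, 79.0 and 76.1 in DDC biliary cells, 35.9, 31.6 and 48.7 in DDC hepatocytes, 45.3, 66.8 and 60.4 in untreated biliary cells, and 0 in all 3 untreated hepatocyte libraries. Compared with DDC hepatocytes, DDC biliary cells were higher by 1.07 (SE 0.19, adjusted p = 5e-05), and DDC reprogrammed hepatocytes exceeded them by 0.72 (SE 0.19, adjusted p = 0.00365, and 0.0844 with all 15 libraries). A count of 0 over the 3 untreated hepatocyte libraries allowed up to 2.88 nuclear RPM (3 counts over the group, counting error only). Against that limit the pooled level was at least 12.8-fold higher in DDC hepatocytes and at least 20.1-fold higher in untreated biliary cells. Of the 25294 regions listed at 0 in all untreated hepatocyte libraries, this one had the highest DDC hepatocyte mean, 38.7, the next being 37.1, a rank looked up after its values were seen. Fitted with DDC and untreated hepatocytes alone, the difference had an adjusted p of 0.264.

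Inside the Tnfrsf11a body, chr1:105784476-105785599, 4314 bp downstream of the start, had 5.37, 4.48 and 4.84 nuclear RPM in DDC reprogrammed hepatocytes, 12.3, 11.8 and 8.50 in DDC biliary cells, 0.854, 0.958 and 0 in DDC hepatocytes, 2.64, 2.46 and 3.64 in untreated biliary cells, and 9.92, 0 and 0 in untreated hepatocytes. The 4 deeper groups followed each other without overlap, from DDC biliary cells through DDC reprogrammed hepatocytes and untreated biliary cells to DDC hepatocytes. DDC biliary cells exceeded DDC hepatocytes by 2.94 (SE 0.40, adjusted p = 2.77e-06) and untreated biliary cells by 1.60 (SE 0.40, adjusted p = 0.00742). The second of these was lost without DDC biliary library 1 (adjusted p = 0.0555), with all 15 libraries (0.287) and with thinned reads (1.14, adjusted p = 0.242). DDC reprogrammed hepatocytes exceeded DDC hepatocytes by 1.94 (SE 0.40, adjusted p = 0.000630, and 0.0791 with all 15 libraries).

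The start region of Tnfrsf11a, chr1:105779995-105782001, had 14.5, 15.9 and 17.2 nuclear RPM in DDC reprogrammed hepatocytes, 17.6, 20.8 and 20.3 in DDC biliary cells, 11.1, 13.4 and 23.5 in DDC hepatocytes, 15.1, 12.3 and 17.5 in untreated biliary cells, and 0, 16.5 and 0 in untreated hepatocytes. It was not called in any comparison among the 4 deeper groups. The one region called between DDC reprogrammed hepatocytes and DDC biliary cells was chr1:105786826-105787417, also in the Tnfrsf11a body, with 2.30, 1.32 and 0.420 in DDC reprogrammed hepatocytes, against 5.68, 5.44 and 7.72 in DDC biliary cells. Its difference of -1.70 had an adjusted p of 0.0474. The call was lost without any 1 of these 6 libraries and without untreated biliary library 2 or 3, with adjusted p between 0.0552 and 0.243. It was also lost with all 15 libraries (0.362), with thinned reads (0.230), with a pseudocount of 0.5 (0.0962) and with no filter (0.0542).

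Further Tnfrsf11a regions were called beyond the body. The region chr1:105885218-105886000 had 0.877, 0.407 and 1.68 nuclear RPM in DDC reprogrammed hepatocytes, 0.481, 1.55 and 0.586 in DDC biliary cells, 9.39, 11.5 and 5.88 in DDC hepatocytes, 2.64, 2.46 and 0.911 in untreated biliary cells, and 9.92, 3.30 and 0 in untreated hepatocytes. It was highest in DDC hepatocytes among the 4 deeper groups. Against DDC hepatocytes it was lower by 2.33 in DDC reprogrammed hepatocytes (adjusted p = 0.000299). It was lower by 2.41 in DDC biliary cells (adjusted p = 9.98e-05). The region chr1:105880468-105881422 had 2.19, 0.610 and 1.26 in DDC reprogrammed hepatocytes, 4.42, 5.63 and 3.52 in DDC biliary cells, 0.854, 0.958 and 1.68 in DDC hepatocytes, 9.07, 6.56 and 9.57 in untreated biliary cells, and 0 in all untreated hepatocyte libraries. It was highest in untreated biliary cells, and DDC reprogrammed hepatocytes were lower than those by -2.04 (SE 0.41, adjusted p = 0.00139).

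Tnfrsf12a encodes Fn14, the receptor for the cytokine TWEAK. Its start lies in a region 14561 bp wide, chr17:23663279-23677839, which also covers Bicdl2, Thoc6 and Hcfc1r1 and whose midpoint falls in Thoc6, 4886 bp from the Tnfrsf12a body. The region had 223, 242 and 204 nuclear RPM in DDC reprogrammed hepatocytes, 199, 204 and 219 in DDC biliary cells, 172, 123 and 195 in DDC hepatocytes, 148, 154 and 186 in untreated biliary cells, and 119, 92.5 and 102 in untreated hepatocytes. It was lowest in all untreated hepatocyte libraries, and its reads cannot be assigned to 1 of the 4 genes. DDC reprogrammed hepatocytes exceeded DDC hepatocytes by 0.47 (SE 0.13, adjusted p = 0.00740, and 0.0912 without DDC hepatocyte library 2). DDC hepatocytes exceeded untreated hepatocytes by 0.62 (SE 0.15, adjusted p = 0.0146), which was 0.0638 without DDC hepatocyte library 1, 0.0635 without library 3, 0.279 with these groups fitted alone and 0.435 with thinned reads. Untreated biliary cells exceeded untreated hepatocytes by 0.63 (SE 0.15, adjusted p = 0.00463, and 0.539 with thinned reads). DDC reprogrammed hepatocytes exceeded untreated biliary cells by 0.46 (SE 0.13, adjusted p = 0.0208), with adjusted p of 0.0661 to 0.0898 without DDC reprogrammed library 1 or 2 or untreated biliary library 1 or 2, 0.128 with all 15 libraries, 0.0841 under TMM scaling and 0.118 in edgeR. The difference of DDC biliary from DDC hepatocytes was 0.37 (SE 0.13, adjusted p = 0.0243), with adjusted p of 0.0540 without DDC biliary library 2, 0.0948 without DDC biliary library 3, 0.261 without DDC hepatocyte library 2, 0.0524 with these groups fitted alone, 0.0802 with all 15 libraries and 0.0554 in edgeR.

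**Figure D5:**
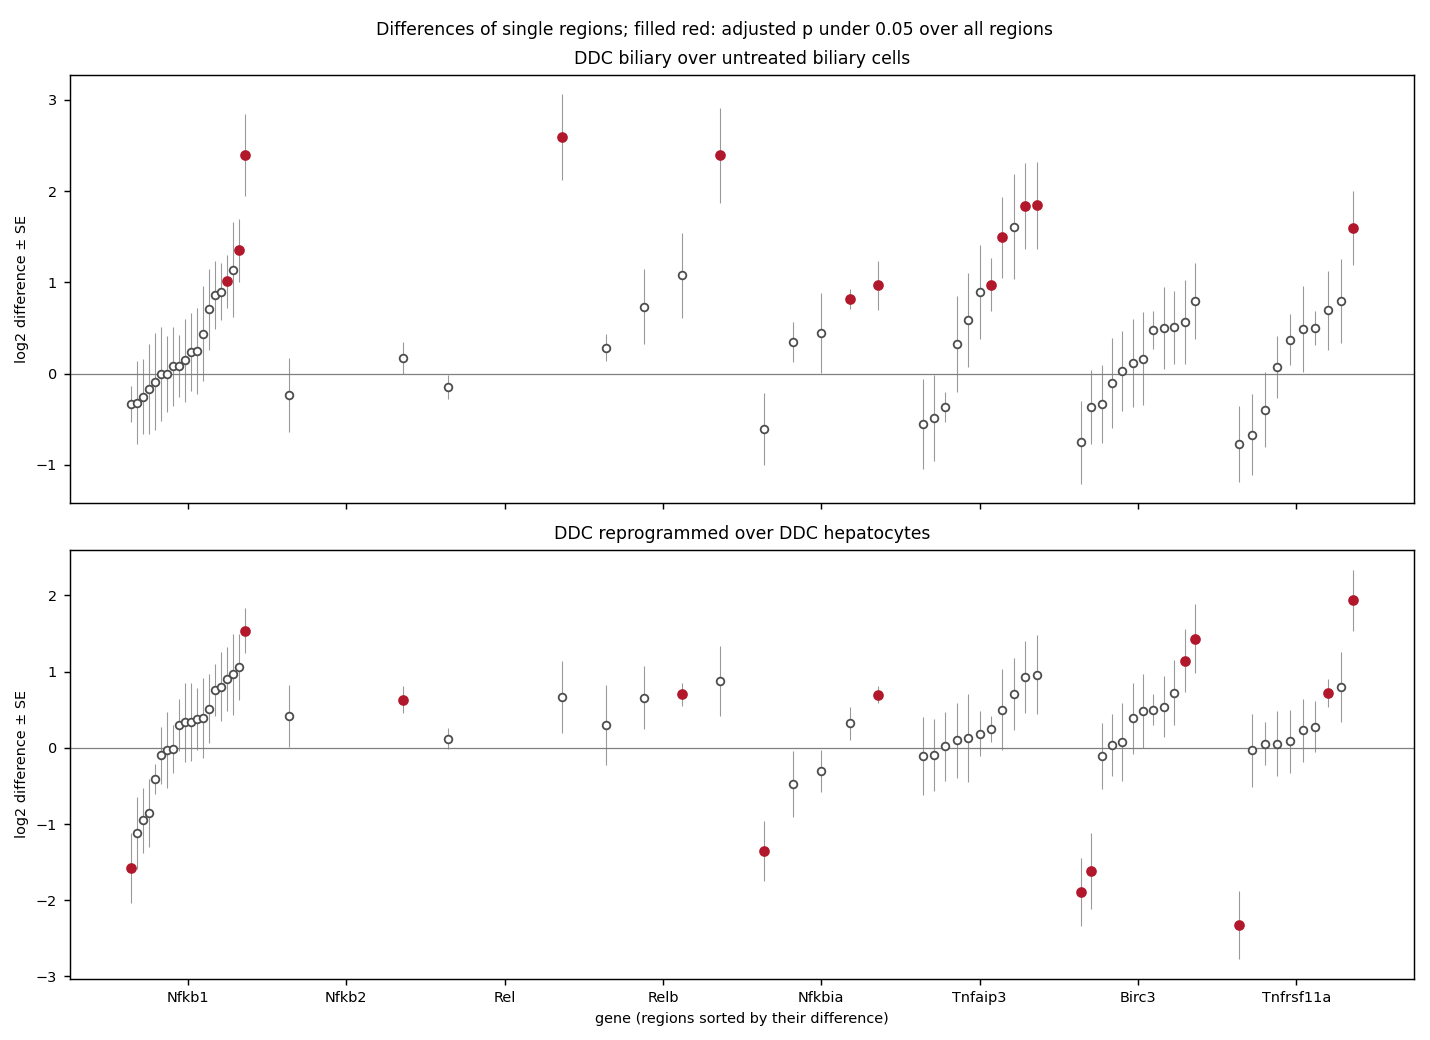
Log2 differences of the single regions, grouped by gene and sorted within it, for DDC biliary against untreated biliary cells and for DDC reprogrammed hepatocytes against DDC hepatocytes. Red points have an adjusted p under 0.05 over all regions. In the first comparison all 12 red points are above 0, and in the second 8 are above and 5 below.

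The rest of the pathway was counted over 7 lists with 103 genes, of which 97 had regions and 95 were tested. In DDC biliary against untreated biliary cells 29 genes were higher and 3 lower, against 9.81% and 6.99% of all genes, with a median of 0.25 over the 95 genes, against -0.02 over all genes. The counts of the single lists in this comparison stand against the same shares. Of the 12 other inhibitors, 5 were higher and none lower. Tnip1, a partner of A20, averaged 230.2 ± 15.2 nuclear RPM in DDC biliary cells, against 125 ± 6.58 in untreated biliary cells (SD, n = 3 each), a difference of 0.87 (adjusted p = 0.00105). Of the 12 genes tested in the kinase list, 2 were higher (Ikbkb and Ikbke) and 2 lower (Tab2 and Tab3). Their median was -0.04, against -0.02 over all genes. Ikbkb, the catalytic subunit of the kinase that marks IkB for destruction, averaged 115 ± 15.4 in DDC biliary cells, against 49.2 ± 10.7 in untreated biliary cells, a difference of 1.22 (adjusted p = 7.21e-05).

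In the other lists of this comparison, where 9.81% of all genes were higher and 6.99% lower, Bcl3, a nuclear partner of p50 and p52, was higher by 0.65 (adjusted p = 0.000656). Of 14 TRAF and death domain adaptors 2 were higher, Traf1 by 1.36 (adjusted p = 0.0198) and Fadd by 1.03 (adjusted p = 0.000556). Of 23 other TNF receptors 7 were higher, led by Cd40 at 1.48 (adjusted p = 0.00618). Of 15 ligands 4 were higher and 1 lower. Of 16 target genes 7 were higher, led by Lcn2 at 1.88 (adjusted p = 0.00349) and Icam1, an adhesion molecule for leukocytes, at 1.40 (adjusted p = 0.000113). Icam1 averaged 77.4 ± 14.3 nuclear RPM in DDC biliary cells, against 28.9 ± 6.64 in untreated biliary cells (SD, n = 3 each).

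In DDC reprogrammed hepatocytes against DDC hepatocytes 31 of the 95 genes were higher and 8 lower, against 21.8% and 13.3% of all genes, with a median of 0.29, against 0.12 over all genes. Tnf, the founding ligand, averaged 79.7 ± 13.5 nuclear RPM in DDC reprogrammed hepatocytes and 14.9 ± 13.2 in DDC hepatocytes (SD, n = 3 each), a difference of 3.30 (adjusted p = 0.00128). Of the 12 other inhibitors, 5 were higher and 2 lower (Tnfaip8l2 and Nlrc5), against the same 21.8% and 13.3% of all genes. Their median was 0.17, against 0.12 over all genes. Among the higher ones, Nfkbie, an inhibitor related to Nfkbia, was higher by 1.53 (adjusted p = 0.000167), and Tnip3 by 3.13 (adjusted p = 1.84e-05). The next counts stand against the same shares. Of 23 other TNF receptors 6 were higher and 3 lower, among them Tnfrsf8, lower by 1.13 (adjusted p = 0.00274). Of 16 target genes 7 were higher and 1 lower, the acute phase gene Saa1, by 1.82 (adjusted p = 0.00413). Of 15 ligands 6 were higher, Tnf included, and 2 lower. The lower ligand gene Tnfsf14 had 20.5 ± 8.97 nuclear RPM in DDC reprogrammed hepatocytes, against 61.4 ± 30.8 in DDC hepatocytes (adjusted p = 0.00682). Against DDC biliary cells, DDC reprogrammed hepatocytes had 0 of the 95 genes called in limma in either direction, against 0.739% higher and 0.996% lower of all genes, with a median of -0.01, against 0.05 over all genes. Against untreated biliary cells they had 25 higher and 0 lower, against 9.01% and 5.38% of all genes, with a median of 0.24, against 0.04 over all genes.

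In DDC hepatocytes against untreated hepatocytes 10 of the 95 genes were higher and 2 lower, close to the 9.63% and 3.90% of all genes, with a median of 0.24, against 0.21 over all genes. The difference between the DDC effects in biliary cells and in hepatocytes was called for 1 of the 95, lower in biliary cells, against 1.03% of all genes higher and 1.75% lower. It was Tradd, an adaptor of the TNF receptor. DDC biliary cells had 36 of the 95 genes higher and 12 lower than DDC hepatocytes, against 24.5% and 18.9% of all genes. Untreated biliary cells had 27 higher and 15 lower than untreated hepatocytes, close to the 25.7% and 13.4% of all genes.

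Markers of other cell types moved with some of these groups. Stellate and fibroblast markers, all 7 with regions, summed to 303 to 372 nuclear RPM in DDC reprogrammed hepatocytes, 309 to 343 in DDC biliary cells, 157 to 196 in DDC hepatocytes, 268 to 283 in untreated biliary cells and 162 to 193 in untreated hepatocytes. Endothelial markers, all 8 with regions, summed to 188 to 235 in DDC reprogrammed hepatocytes, 158 to 174 in DDC biliary cells, 228 to 250.6 in DDC hepatocytes, 102 to 149.6 in untreated biliary cells and 134 to 200.1 in untreated hepatocytes. Neutrophil markers, 5 of 7 with regions, summed to 19.7 to 30.7 in DDC reprogrammed hepatocytes, 15.9 to 23.8 in DDC biliary cells, 17.6 to 22.6 in DDC hepatocytes, 8.20 to 11.3 in untreated biliary cells and 19.8 to 38.3 in untreated hepatocytes.

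Of the macrophage markers 3 of 9 had regions, with 97.8 to 124 nuclear RPM in DDC reprogrammed hepatocytes, 103 to 128 in DDC biliary cells, 92.4 to 164 in DDC hepatocytes, 95.0 to 105 in untreated biliary cells and 57.8 to 85.2 in untreated hepatocytes. Adgre1, Clec4f, Cd5l, Vsig4, Timd4 and Cd163 had no region. Of the lymphocyte markers 4 of 10 had regions, with 31.8 to 43.1 in DDC reprogrammed hepatocytes, 37.5 to 44.1 in DDC biliary cells, 24.3 to 48.7 in DDC hepatocytes, 32.1 to 43.0 in untreated biliary cells and 61.1 to 85.2 in untreated hepatocytes. Cd3d, Cd3g, Ms4a1, Cd79a, Cd79b and Nkg7 had no region. The part of these cells in the differences above was not tested.

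Across the 15 libraries, the genes whose sums were most like each of the 8, among 16370 genes, were found by Pearson's r of log2(nuclear RPM + 1). They were Ankfn1 (0.984) and Vipr1 (0.981) for Relb, Coro1c (0.967) and Cstad (0.964) for Nfkb2, Ezh1 (0.961) and Tagln2 (0.960) for Tnfrsf11a, Tbrg1 (0.918) and Haus4 (0.899) for Birc3, and Atf7 (0.915) and Chst4 (0.898) for Tnfaip3. Lower values were found for Nfkbia, with Il1rn (0.890) and Bace2 (0.862), for Nfkb1, with Rbbp4 (0.854) and Frrs1 (0.852), and for Rel, with Ints8 (0.817) and Zscan30 (0.809). Libraries of a group and low depth in untreated hepatocytes are shared by all points, so these values only describe the pattern.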

How the data were processed

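The series holds 15 mouse liver ATAC-seq libraries in 5 groups of 3. The authors deposited 1 matrix of 93217 regions, named TPM; its values are whole multiples of 1 read per library and are treated as RPM as deposited by the authors. Bowtie2, SAMtools, MACS2, bedtools and mm10 are named in the submitters' processing notes, without versions; how regions were merged is not given in the sources used here. In each library 100% of low values were whole reads within a tolerance of 0.02, though in 1 DDC reprogrammed library this evidence was weak because 1 read was worth about 0.101 RPM.

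Columns were rescaled to a sum of 1000000 without the mitochondrial chromosome (2 rows). Of all regions, 86.2% had a midpoint in, or within 50 kb of, 1 of 21896 protein-coding genes. The test was limma-trend 3.58.1 in R 4.3.3 on log2(nuclear RPM + 1), minimum mean 1, Benjamini-Hochberg adjustment, threshold 0.05. Comparisons with untreated hepatocytes were fitted on all 15 libraries, the others on the 12 without them. The same 2-sided test was run on single regions. edgeR 4.0.16 on the recovered reads, other scalings, filters, pseudocounts, rules tying regions to genes, thinned reads and leaving out each library were alternatives. Among all genes, edgeR called 3232 for DDC biliary against untreated biliary cells and 5537 for DDC reprogrammed against DDC hepatocytes. The steps were tested on simulated data.

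Named always were the 9 genes, their strongest and start regions, the called region with the largest difference in each comparison, the 2 most alike genes, and up to 3 called genes per list. Other regions were named after their values were seen. The genes, lists and tests were chosen with earlier results of these data known. With 3 libraries a group, precision is limited by depth: 1 read was worth 0.0962 to 0.194 nuclear RPM in DDC biliary cells, and limits from a count of 0 cover counting error only.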

Additional observations from a re-analysis of the deposited data

Results flagged for a closer look

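In 5 results the change with DDC differed between biliary cells and hepatocytes in a limma test of the difference itself (DDC minus untreated in biliary cells, minus the same in hepatocytes). For the gene sums this difference was 0.96 at Nfkbia (adjusted p = 0.0164) and 1.08 at Birc3 (adjusted p = 0.0188). For single regions it was 1.01 at the wide Nfkbia region chr12:55478697-55493489 (adjusted p = 0.0164), 1.43 at the Birc3 start region chr9:7871182-7873535 (adjusted p = 0.0329) and -4.79 at the Tnfrsf11a region chr1:105864891-105867974 (adjusted p = 8.45e-05). Of the 64 regions tested these 3 were called, 2 higher and 1 lower, against 0.554% and 1.80% of all regions. The Nfkbia and Birc3 regions held 69.8% and 52.4% of their gene sums, so they are not separate from those sums. The Tnfrsf11a gene sum was not called by this difference (-0.72, adjusted p = 0.167). The fitted value at Tnfrsf11a rests on 0 reads in untreated hepatocytes, depends on the pseudocount and is no bound. Nfkbia and Birc3 were higher in DDC biliary than in untreated biliary cells (0.72 and 0.37) and lower in DDC hepatocytes than in untreated hepatocytes (-0.24 and -0.70), of which the Birc3 value in biliary cells and the Nfkbia value in hepatocytes did not pass the test. On the deposited scale both gene sums and the wide Nfkbia region turned sign, to -0.47, -0.34 and -0.41. Under TMM scaling the wide Nfkbia region (adjusted p = 0.496) and the Birc3 start region (adjusted p = 0.210) were not called. Untreated hepatocytes had the fewest nuclear reads of the 5 groups, 201705 to 605309, and with reads thinned to 1 depth none of the 5 was called, with adjusted p between 0.182 and 0.478. Groups of 3 were not checked for outlying libraries.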

How the results depend on the processing

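Numbers below are counts of the 8 genes called, first as reported. DDC biliary against untreated biliary cells had 2, with 4 when only the compared groups were fitted, 1 with all 15 libraries, 5 on RPM as deposited, 4 in edgeR, 1 with the nearest of all RefSeq genes, and 1 to 4 leaving out each library. DDC against untreated hepatocytes had 2, with 0 for the compared groups, 8 as deposited, 1 with thinned reads, 1 with midpoints in the body, 1 with all RefSeq genes, and 2 to 3 leaving out each library. DDC reprogrammed against DDC hepatocytes had 4, with 1 on all 15 libraries, 8 as deposited, 2 under TMM, 2 in edgeR, 2 in the body, and 2 to 4 leaving out each library. DDC reprogrammed hepatocytes against DDC biliary cells had 0, with 1 for the compared groups, 1 in edgeR, and 0 to 1 leaving out each library. DDC reprogrammed hepatocytes against untreated biliary cells had 2, with 1 on all 15 libraries, 1 with thinned reads, 1 in the body, and 1 to 2 leaving out each library. DDC biliary cells against DDC hepatocytes had 5, with 2 on all 15 libraries, 8 as deposited, 3 in the body, and 4 to 5 leaving out each library. Untreated biliary cells against untreated hepatocytes had 6, with 3 for the compared groups, and 3 to 6 leaving out each library. The difference of the DDC effects had 2, with 1 for the compared groups, 5 as deposited, 0 with thinned reads, 1 in the body, and 0 to 3 leaving out each library. Midpoints in the body alone left Nfkbia without a region. Using the regions that touch the body was added after seeing the data. Other causes of these changes were not tested.

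Among results called as reported or in the alternative, directions turned only on RPM as deposited. Turns of differences called in neither were not counted. RPM as deposited moved the median of all genes to 1.54 for DDC against untreated hepatocytes (0.21 as reported). The median became 1.92 for untreated biliary cells against untreated hepatocytes (0.32) and -1.42 for the difference of DDC effects (-0.21). It was 0.56 for DDC reprogrammed against DDC hepatocytes (0.12) and 0.50 for DDC biliary cells against DDC hepatocytes (0.08). It was 0.18 for DDC reprogrammed hepatocytes against untreated biliary cells (0.04) and 0.12 for DDC biliary against untreated biliary cells (-0.02). For DDC against untreated hepatocytes the values became 1.13 at Nfkb1, 1.52 at Rel, 1.35 at Nfkbia, 1.52 at Tnfaip3, 0.86 at Birc3 and 0.60 (0.595) at the Birc3 start region. For untreated biliary cells against untreated hepatocytes they became 1.29 at Nfkb1, 1.51 at Nfkbia, 1.04 at Birc3, 0.80 at the Nfkbia region chr12:55464019-55468034 and 0.90 at the Birc3 start region. For the difference of DDC effects they became -0.47 at Nfkbia, -1.24 at Tnfaip3, -0.34 at Birc3 and -0.41 at the wide Nfkbia region.

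Of all genes called, the share that was higher was, as reported, as deposited and under TMM, 58.4%, 84.2% and 66.2% for DDC biliary against untreated biliary cells, 71.2%, 99.9% and 70.4% for DDC against untreated hepatocytes, 62.1%, 90.2% and 52.7% for DDC reprogrammed against DDC hepatocytes, 42.6%, 42.9% and 32.0% for DDC reprogrammed hepatocytes against DDC biliary cells, 62.6%, 84.7% and 61.8% for DDC reprogrammed hepatocytes against untreated biliary cells, 56.5%, 84.1% and 52.9% for DDC biliary cells against DDC hepatocytes, 65.6%, 98.9% and 59.3% for untreated biliary cells against untreated hepatocytes, and 37.1%, 1.48% and 44.4% for the difference of DDC effects. With all 15 libraries in the fit, all genes called numbered 531 in place of 2750 for DDC biliary against untreated biliary cells, 2363 in place of 5737 for DDC reprogrammed against DDC hepatocytes and 410 in place of 2354 for DDC reprogrammed hepatocytes against untreated biliary cells. It was 4 in place of 284 for DDC reprogrammed hepatocytes against DDC biliary cells and 4010 in place of 7102 for DDC biliary cells against DDC hepatocytes. With only the compared groups it was 4513 of DDC biliary against untreated biliary cells, 1 of DDC against untreated hepatocytes, 1184 of DDC reprogrammed hepatocytes against DDC biliary cells, 2769 (6401 as reported) of untreated biliary cells against untreated hepatocytes and 167 of the difference of DDC effects. As deposited, DDC against untreated hepatocytes had 13750, DDC reprogrammed against DDC hepatocytes 9406, untreated biliary cells against untreated hepatocytes 14080 and the difference of DDC effects 10388. With edgeR, DDC against untreated hepatocytes had 817 and DDC reprogrammed hepatocytes against DDC biliary cells 689. Tying regions to the nearest of all RefSeq genes, a longer list, gave 436 to 12086 over the 7 pairs of groups. With thinned reads they numbered 2397 for untreated biliary cells against untreated hepatocytes, 247 in place of 2216 for DDC against untreated hepatocytes and 23 in place of 455 for the difference of DDC effects, where fewer reads entered the fit.

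Whether replicate numbers pair libraries was not settled. Same-numbered libraries of different groups had deviations correlated between -0.136 and 0.199, and no pair of groups had all 3 over 0.1. Of these 30 pairs 8 were over 0.1, against 4 of 60 with other numbers, which lay between -0.249 and 0.185. Among the DDC groups all same-numbered pairs were positive, from 0.0226 to 0.199, while the others lay between -0.177 and 0.0424. The main fits ignored any such pairing. With a replicate block the 8 genes gave 3 calls for DDC biliary against untreated biliary cells, 3 for DDC against untreated hepatocytes, 4 for DDC reprogrammed against DDC hepatocytes and 3 for the difference of DDC effects. Among all genes the block gave more calls in every comparison, such as 390 in place of 284 for DDC reprogrammed hepatocytes against DDC biliary cells. Depth limits low regions most in untreated hepatocytes, where 40.4% to 59.1% of nuclear regions had no read.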
